A study of Homo sapiens with 6 samples.

Results

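The 10 genes described here encode proteins that hold epithelial cells together, and they were chosen by name from 20162 protein-coding genes. They are CDH1 of the adherens junction, CLDN1, CLDN4 and CLDN7 of the tight junction, and DSP, PKP1, PKP3, DSG3, DSC2 and DSC3 of the desmosome. For each gene, the peaks of every ATAC-seq library were taken that overlapped the gene body with 20 kb to each side. A peak within 3 kb of a transcription start site of the gene was counted as a promoter peak, a peak within 3 kb of a start site of another protein-coding gene was kept apart, and every other peak was counted as distal. Expression was not measured in these files, so the values below describe open chromatin at the genes and not the amount of their proteins.

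The libraries came from HET-1A, a non-cancerous human esophageal epithelial cell line, and from KYSE-150 and KYSE-30, lines of esophageal squamous cell carcinoma (ESCC). There were 2 libraries per line, numbered 1 and 2 for HET-1A, 7 and 8 for KYSE-150 and 4 and 6 for KYSE-30 in the sample labels. No treatment was applied. HET-1A was grown in BEBM with its additives and the carcinoma lines in RPMI/F12 with serum, so that line and medium cannot be told apart. ATAC-seq uses the Tn5 transposase to cut DNA that is not wrapped in nucleosomes, and a peak is a place with more cuts than its surroundings.

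In squamous epithelium, neighbouring cells are joined by belts and spots. E-cadherin, the product of CDH1, binds its like on the next cell and is tied to actin through catenins in the adherens junction. Claudins seal the space between cells in the tight junction. In the desmosome, the cadherins DSG3, DSC2 and DSC3 reach across to the next cell, the plakophilins PKP1 and PKP3 bind their tails, and desmoplakin (DSP) links this plaque to keratin filaments. Known regulators of such genes include the Grainyhead-like factors, which open epithelial enhancers, AP-1, a dimer of FOS and JUN proteins, and the repressors of the SNAI and ZEB families, which bind E-boxes.

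The sequences at the sites on which the results turn are given first, from the hg19 plus strand and centred on the summit of the strongest peak unless stated. Capitals mark the AP-1 core (TGACTCA or TGAGTCA) and the E-box (CAGGTG or CACCTG), each searched on both strands. The first 2 were called in both HET-1A and KYSE-30 and lie in an intron of CLDN4 (chr7:73236949-73237148) and upstream of PKP1 (chr1:201244499-201244698). Another site of the same lines lies downstream of CLDN4, and the stretch given for it (chr7:73265920-73266119) holds neither motif. This stretch is centred on the HET-1A library 2 summit and does not reach the KYSE-30 library 4 summit at 73265827. The CLDN1 site (chr3:190037573-190037772) was called in KYSE-30 library 6 alone, and the CDH1 intron site (chr16:68790231-68790430) in HET-1A library 2 alone.
CLDN4 intron: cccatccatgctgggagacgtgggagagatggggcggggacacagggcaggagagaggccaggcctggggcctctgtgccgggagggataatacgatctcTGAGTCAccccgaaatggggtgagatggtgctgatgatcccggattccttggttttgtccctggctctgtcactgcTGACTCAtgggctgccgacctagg
PKP1 upstream: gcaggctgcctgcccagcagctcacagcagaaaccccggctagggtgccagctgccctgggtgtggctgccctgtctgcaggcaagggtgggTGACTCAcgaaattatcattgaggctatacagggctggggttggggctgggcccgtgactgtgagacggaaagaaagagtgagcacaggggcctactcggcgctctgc
CLDN4 downstream: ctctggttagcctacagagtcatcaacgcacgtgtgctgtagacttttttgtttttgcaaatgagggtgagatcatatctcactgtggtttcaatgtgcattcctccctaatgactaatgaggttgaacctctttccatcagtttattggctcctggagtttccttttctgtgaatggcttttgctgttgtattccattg
CLDN1 intron: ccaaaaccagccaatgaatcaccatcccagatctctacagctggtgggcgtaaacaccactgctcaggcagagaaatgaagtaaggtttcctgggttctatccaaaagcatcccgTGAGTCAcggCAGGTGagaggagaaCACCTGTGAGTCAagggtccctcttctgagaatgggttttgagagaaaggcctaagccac
CDH1 intron: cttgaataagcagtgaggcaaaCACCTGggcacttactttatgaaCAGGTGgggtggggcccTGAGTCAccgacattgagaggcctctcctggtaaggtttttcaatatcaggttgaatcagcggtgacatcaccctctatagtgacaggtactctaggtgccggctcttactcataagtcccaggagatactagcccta

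In the CLDN4 intron the 2 AP-1 cores began at positions 73237049 and 73237125, the former at the very summit of the KYSE-30 library 6 peak. The PKP1 site held 1 AP-1 core, beginning at 201244591, within 8 bases of the summit. The CLDN1 site held 2 AP-1 cores and 2 E-boxes, the last E-box directly followed by the last AP-1 core. The CDH1 site held 1 AP-1 core and 2 E-boxes.

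The libraries differed widely in how many peaks were called, and this sets what can be seen at any gene. The HET-1A lists held 168 (library 1) and 15979 peaks (library 2), those of KYSE-150 547 (library 7) and 259 (library 8), and those of KYSE-30 1255 (library 4) and 11671 (library 6). HET-1A library 1 stood apart, with 11.3% of its peaks at promoters against 26.6% to 50.5% in the others, and it had no peak at any of the 10 genes. Every HET-1A peak described below therefore comes from library 2. The count of genes with a promoter peak in both HET-1A libraries was 0. Without library 1 it becomes the 3 of library 2 alone, which no replicate bears out. The strength of a peak is its fold enrichment, the ratio of the tags at its summit (read ends, each extended to 200 bp) to those its surroundings predict, after 1 is added to both. With 2 libraries per line, the smallest two-sided p-value of an exact permutation test is 0.33, so lines were not tested against each other and each library is described by itself. The submitters describe the 2 libraries of a line as biological replicates.

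Across the 10 genes, 26 peaks were called. HET-1A library 2 held 16 of them, KYSE-30 held 5 (library 6) and 2 (library 4), and KYSE-150 held 1 (library 7) and 2 (library 8). Of these, 8 lay at promoters of the genes themselves, 5 at promoters of other genes and 13 were distal. They made up 0.1% of the list of HET-1A library 2 (Wilson 95% interval 0.0616% to 0.163%) and 0.0428% of that of KYSE-30 library 6 (0.0183% to 0.1%), and these intervals overlap. For KYSE-150 the share was 0.183% in library 7 (0.0323% to 1.03%) and 0.772% in library 8 (0.212% to 2.77%), and for KYSE-30 library 4 it was 0.159% (0.0437% to 0.579%). With 0 of 168 peaks in HET-1A library 1, the interval reached up to 2.24%. These intervals cover counting error only.

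**Figure D1:**
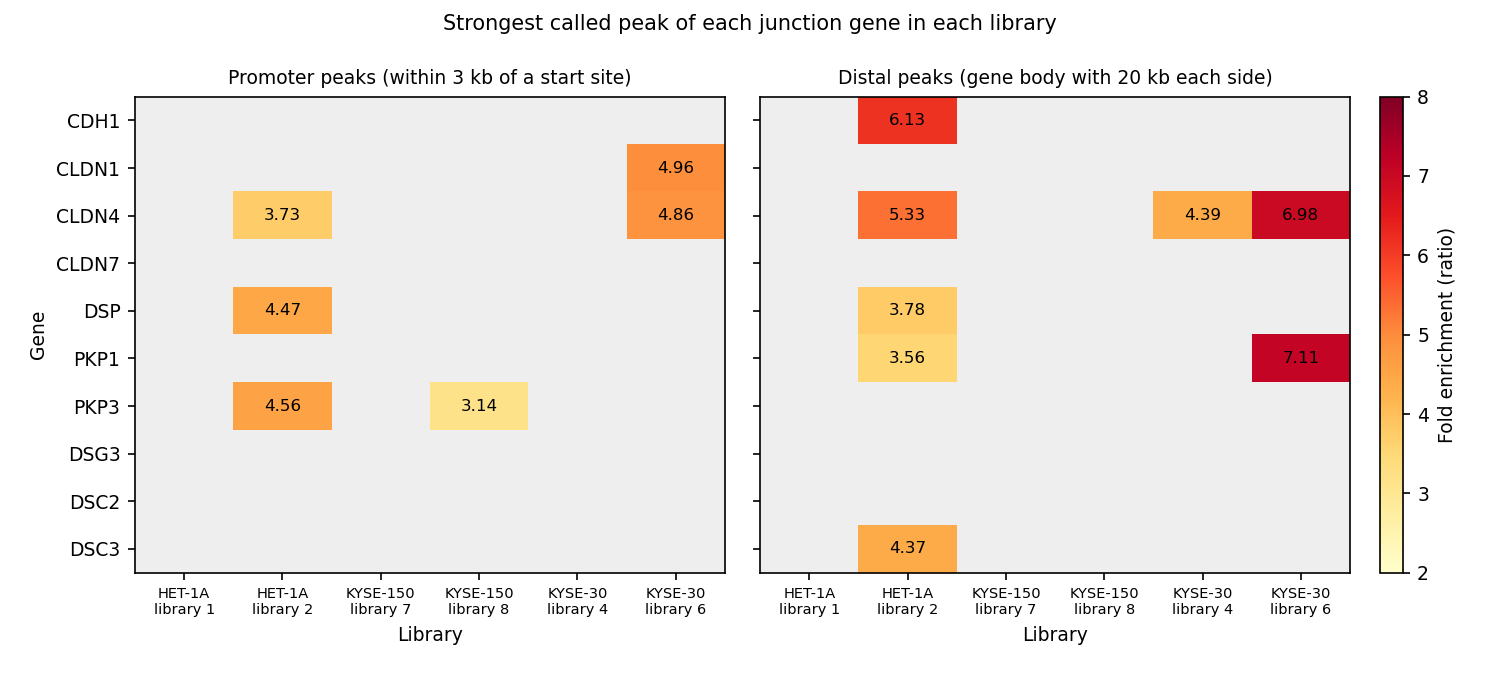
Fold enrichment (colour and number, a ratio) of the strongest promoter peak (left) and distal peak (right) called at each gene (rows) in each library (columns), with grey for no called peak and peaks at promoters of other genes left out. Promoter peaks appear for CLDN1, CLDN4, DSP and PKP3 only, and distal peaks for CDH1, CLDN4, DSP, PKP1 and DSC3, mostly in HET-1A library 2.

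At the promoters, 4 of the 10 genes had a peak in at least 1 library, while 53.6% of all protein-coding genes had none in any library. For HET-1A library 2 these were CLDN4, DSP and PKP3, which makes 3 of 10 where 35.4% of all protein-coding genes had a promoter peak. In KYSE-30 library 6 they were CLDN1 and CLDN4, 2 of 10 where 28.7% of all genes had one. Both counts lie near the share of all genes. In KYSE-150 library 8 PKP3 alone had a promoter peak, against 0.362% of all genes. None of the 10 had one in library 1 of HET-1A (0.0942% of all genes), library 7 of KYSE-150 (1.79%) or library 4 of KYSE-30 (3.87%), where few were called anywhere.

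No promoter peak of the 10 genes was called in both libraries of a line. The share of all genes for which this held was 0.0496% for HET-1A, 0.0546% for KYSE-150 and 3.12% for KYSE-30, so a gene rarely met it. DSP was the 1 gene with a promoter peak in HET-1A and in no library of another line, which 16.3% of all genes had. CLDN1 was the 1 gene with a promoter peak in KYSE-30 alone, which 10.4% of all genes had, and none of the 10 had one in KYSE-150 alone (0.283% of all genes).

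In the whole window of gene body and flanks, 7 of the 10 genes had a peak in HET-1A library 2 (57.7% of all genes) and 4 in KYSE-30 library 6 (47.7%). The 7 were CDH1, CLDN4, CLDN7, DSP, DSC3, PKP1 and PKP3, and the 4 were CLDN1, CLDN4, CLDN7 and PKP1, where CLDN7 counts through promoters of its neighbours. Elsewhere a single gene had a window peak, CLDN7 in library 7 of KYSE-150 (3.66% of all genes), PKP3 in its library 8 (1.21%) and CLDN4 in KYSE-30 library 4 (8.12%). None had one in HET-1A library 1 (0.57% of all genes). Windows of other genes differ in length from these, which span 764 kb in all, so that the shares are a rough measure.

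Distal peaks were called at 5 of the 10 genes in HET-1A library 2, namely CDH1, CLDN4, DSP, DSC3 and PKP1, where 23.7% of all genes had one. In KYSE-30 library 6 CLDN4 and PKP1 had one (16.5% of all genes), and in KYSE-30 library 4 CLDN4 (1.94%). No gene of the 10 had a distal peak in HET-1A library 1 (0.422%) or in KYSE-150 (0.858% of all genes in library 7 and 0.541% in library 8). CLDN4 and PKP1 had distal peaks in libraries of 2 lines, which 9.34% of all genes had in 2 lines or more.

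**Figure D2:**
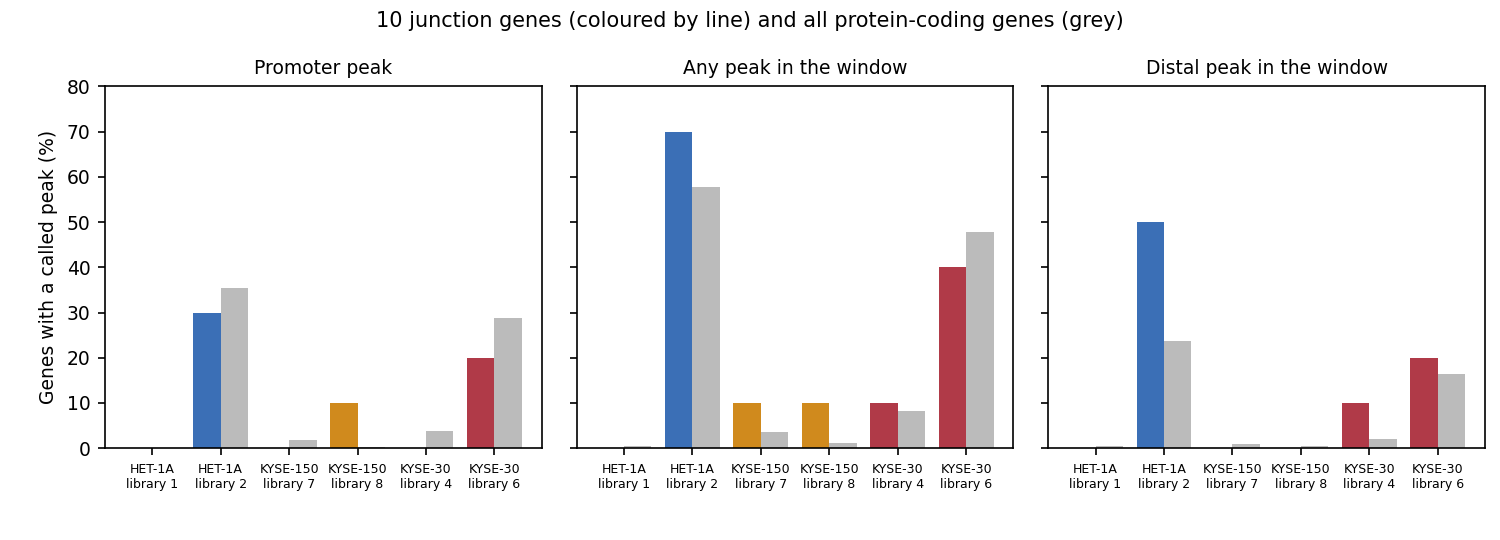
Percent of genes with a called peak (vertical axis) in each library (horizontal axis), for the 10 junction genes (bars coloured by line) and for all 20162 protein-coding genes (grey bars), for promoter, window and distal peaks. In HET-1A library 2 the coloured bar is below the grey bar for promoter peaks (3 of 10 against 35.4%) and above it for distal peaks (5 of 10 against 23.7%).

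The gene of the adherens junction, CDH1 (ENSG00000039068, chr16:68771195-68869440, plus strand), had 3 peaks in HET-1A library 2 and none in the other libraries, and none of the 3 was at a promoter. The strongest, at chr16:68790157-68790466 in an intron 19136 bp from the gene start, had a fold enrichment of 6.13, a q-value of 1.6e-16 and 38 tags at its summit (exact Poisson 95% interval 26.9 to 52.2). Only 7.32% of the peaks of that library had a smaller q-value. A second intron peak, at chr16:68778739-68778963, had a fold enrichment of 5.27, and a peak 5130 bp upstream of the gene start, at chr16:68765924-68766123, one of 3.97. E-cadherin is the adhesion molecule that carcinoma cells often lose. At its start site no peak was called in any of the 6 libraries, those of HET-1A included. Of all genes, 53.6% had no promoter peak in any library. The nearest peaks in KYSE-30 lay outside the window, upstream on the side of CDH3, with a fold enrichment of 3.88 at 29.5 kb in library 4 and of 4.51 at 101 kb in library 6.

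Of the 10 peaks called in the carcinoma lines, 7 lay in windows of the tight junction genes. CLDN4 (ENSG00000189143, chr7:73213872-73247020, plus strand), a claudin that tightens the seal, had 8 peaks, 4 in HET-1A library 2 and 2 in each KYSE-30 library. Its intron site was the 1 region of the 10 genes called in both libraries of a line. There the fold enrichment was 5.33 in HET-1A library 2, and 4.26 (library 4) and 6.98 (library 6) in KYSE-30, with q-values of 1.25e-13, 7.43e-05 and 1.24e-12. The 3 summits lay within 174 bp of each other, about 5 kb upstream of a CLDN4 start site at 73242074. No peak was called there in KYSE-150 or in HET-1A library 1.

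To set libraries of different depth side by side, the tags at a summit were divided by the genome background, the smallest local background of that library (1.88, 3.34, 2.8, 2.64, 2.36 and 1.49 tags per 200 bp in libraries 1, 2, 7, 8, 4 and 6). At the CLDN4 intron this ratio was 10.8 for HET-1A library 2 (exact Poisson 95% interval 7.54 to 14.9), and for KYSE-30 8.03 in library 4 (4.84 to 12.5) and 16.1 in library 6 (10.3 to 24.0). The KYSE-30 libraries lay on either side of HET-1A, and each interval overlapped the other 2. The site downstream of CLDN4, nearest to the start of METTL27, had a fold enrichment of 4.68 in HET-1A library 2 and 4.39 in KYSE-30 library 4, with ratios of 8.97 (6.05 to 12.8) and 8.03 (4.84 to 12.5). KYSE-30 library 6, which has the longer list, had no peak at that site.

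CLDN4 had promoter peaks in both lines, but at different start sites. In HET-1A library 2 the peak at chr7:73213950-73214152 lay 87 bp inside the most upstream annotated start, in an exon, with a fold enrichment of 3.73, a q-value of 0.000163 and 17 tags. In KYSE-30 library 6 the peak at chr7:73245079-73245399 lay 117 bp from a start site at 73245326, in annotated UTR, with a fold enrichment of 4.86, a q-value of 2.82e-07 and 20 tags. The summits were 31.2 kb apart. Promoter peaks in just these libraries were called at 14.7% of all genes, and for CLDN4 they were at 2 separate sites. A further HET-1A library 2 peak in an intron, at chr7:73223961-73224209, had a fold enrichment of 3.64.

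CLDN1 (ENSG00000163347, chr3:190023496-190040235, minus strand), a claudin needed for the epithelial barrier, had 1 peak, in KYSE-30 library 6. It lay at chr3:190037602-190037818 in an intron, 2562 bp inside the gene start, with a fold enrichment of 4.96, a q-value of 4.4e-08 and 22 tags (13.8 to 33.3). It also lay within 3 kb of a start site of CLDN16, the neighbouring claudin gene. In HET-1A library 2 the nearest peak was 47.4 kb upstream of the CLDN1 start, with a fold enrichment of 4.83. With promoters of 1 kb in place of 3 kb, CLDN1 would have had no promoter peak.

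CLDN7 (ENSG00000181885, chr17:7163222-7167302, minus strand), another claudin of epithelial cells, had no promoter peak and no distal peak in any library. All 5 peaks in its window lay at promoters of neighbours. The promoter shared by ELP5 and CTDNEP1 had a fold enrichment of 7.94 in HET-1A library 2, of 4.3 in library 7 of KYSE-150 and of 5.06 in library 6 of KYSE-30. It was the 1 region of all windows that was called in the 3 lines, and it belongs to genes of other functions. HET-1A library 2 also had a peak at the start of PHF23 beside GABARAP (4.5) and one at the start of SLC2A4 (4.02).

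**Figure D3:**
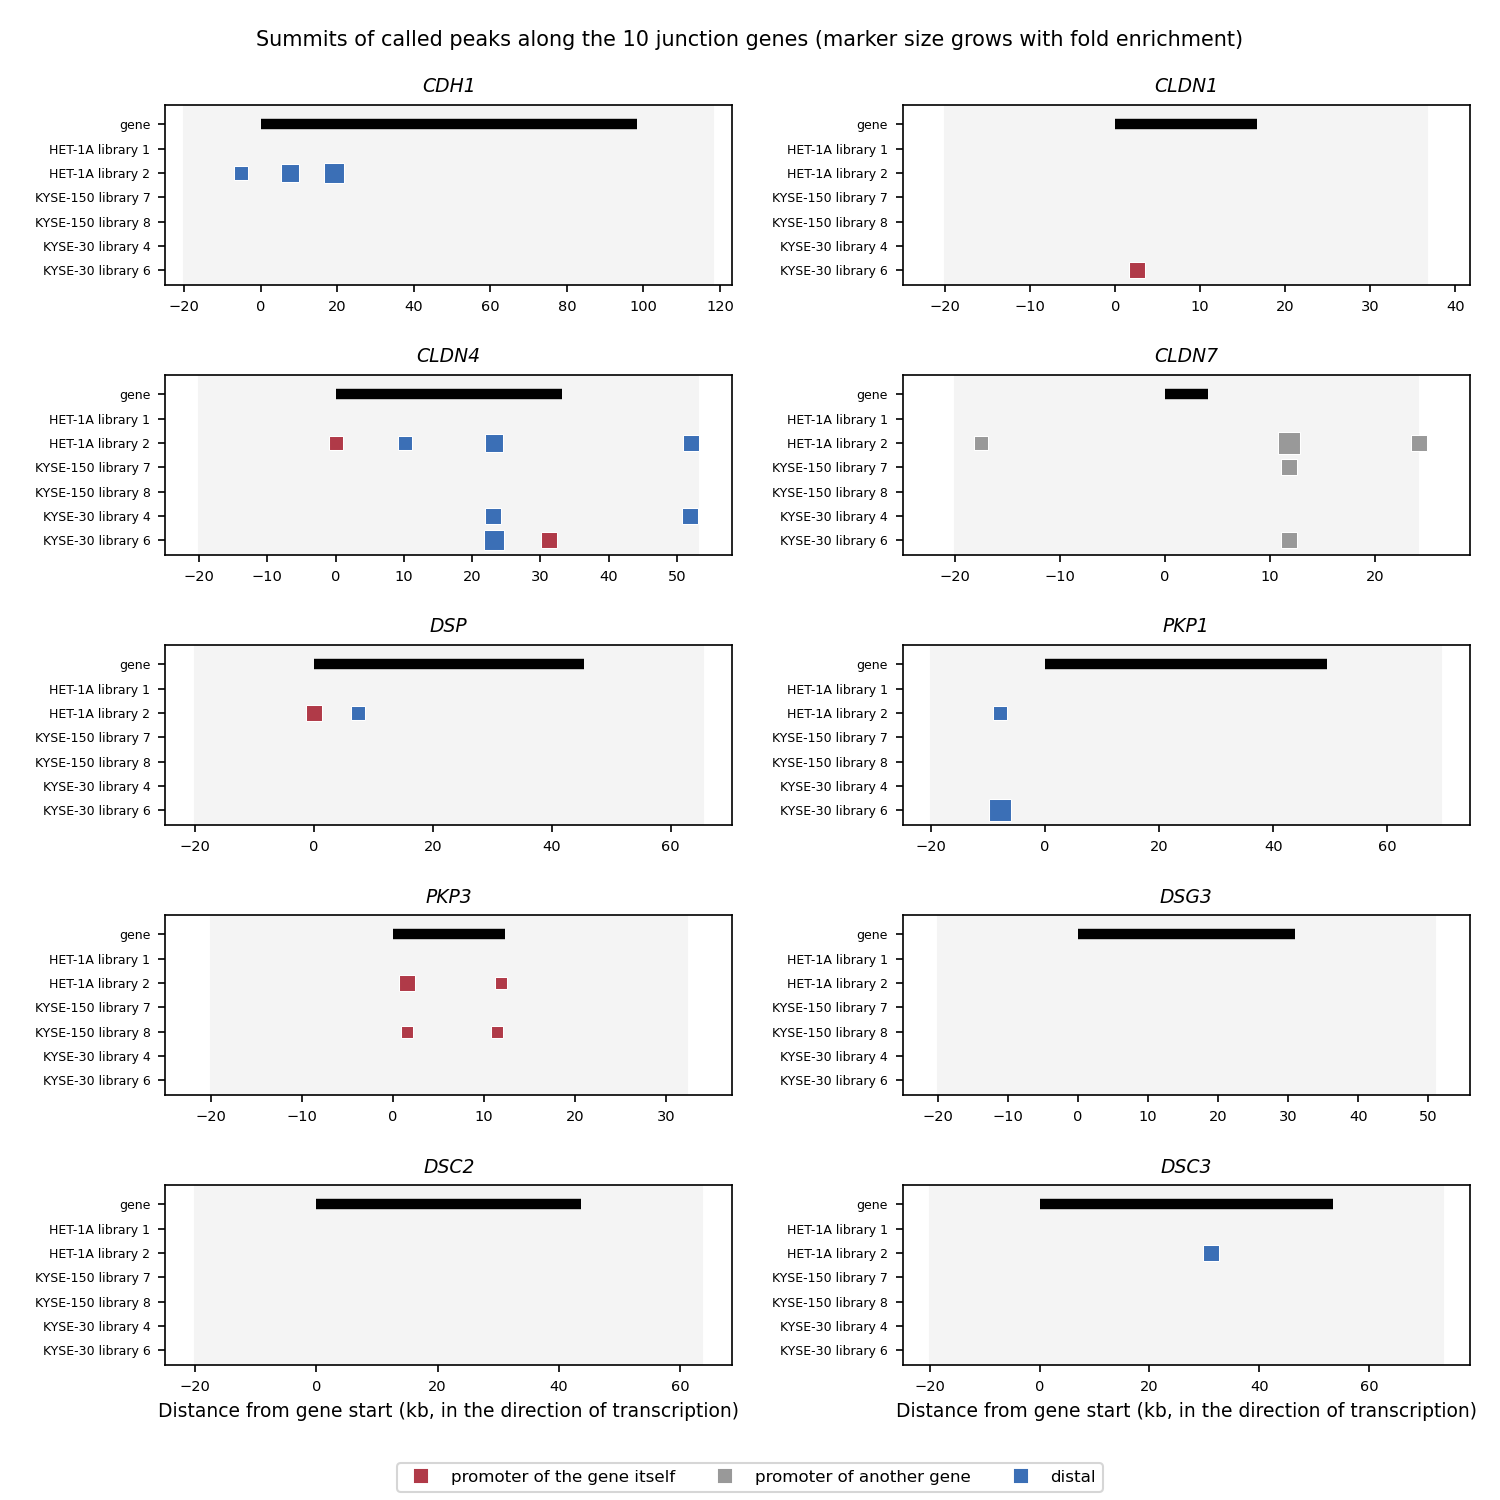
Summits of the called peaks (squares, larger for higher fold enrichment) along each of the 10 genes, by distance in kb from the gene start in the direction of transcription (horizontal axis) and by library (rows). The black bar is the gene, light grey the window with 20 kb to each side, red a promoter peak of the gene, blue a distal peak and dark grey a promoter peak of another gene. The panels of DSG3 and DSC2 are empty, and the CLDN7 panel holds only promoters of other genes.

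Among the plaque genes of the desmosome, DSP (ENSG00000096696, chr6:7541571-7586947, plus strand) had its peaks in HET-1A library 2 alone. The promoter peak at chr6:7541561-7541858 had its summit 88 bp inside the gene start, beside the start of the antisense gene DSP-AS1, with a fold enrichment of 4.47, a q-value of 6.5e-07 and 21 tags (13.0 to 32.1). An intron peak at chr6:7548906-7549225 had a fold enrichment of 3.78. Desmoplakin is an obligate part of desmosomes. No peak at its start was called in the carcinoma lines. In KYSE-30 library 6 the nearest peak was 35.8 kb upstream of the gene start, outside the window, with a fold enrichment of 10.4, higher than any peak inside the windows of the 10 genes.

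PKP1 (ENSG00000081277, chr1:201252580-201302121, plus strand) encodes the plakophilin of the upper squamous layers. It had no promoter peak, and its 1 site, nearly 8 kb upstream of the gene start, was called in both long lists. In HET-1A library 2 the peak at chr1:201244466-201244778 had a fold enrichment of 3.56 and a q-value of 3.59e-07, and 53.1% of the peaks of the list had a smaller q-value. In KYSE-30 library 6 the peak at chr1:201244379-201244774 had a fold enrichment of 7.11 and a q-value of 6.68e-16, and 9.61% of the peaks had a smaller one. Both peaks held 31 tags at the summit, and the summits were 45 bp apart. Relative to the genome background the tags were 9.27 times in HET-1A (exact Poisson 95% interval 6.3 to 13.2) and 20.8 times in KYSE-30 (14.2 to 29.6), and these intervals did not overlap. With the local background held at its value, the interval of the fold enrichment reached up to 5.01 in HET-1A and down to 4.9 in KYSE-30, a narrow overlap. The local background was raised alike, to 2.39 and 2.35 times the genome background. This compares 1 library with 1 library, and the other library of each line had no peak there. Over all peaks of the list, the median fold enrichment was 4.22 in HET-1A library 2 and 5.47 in KYSE-30 library 6. The part of this general difference in the PKP1 values was not tested.

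**Figure D4:**
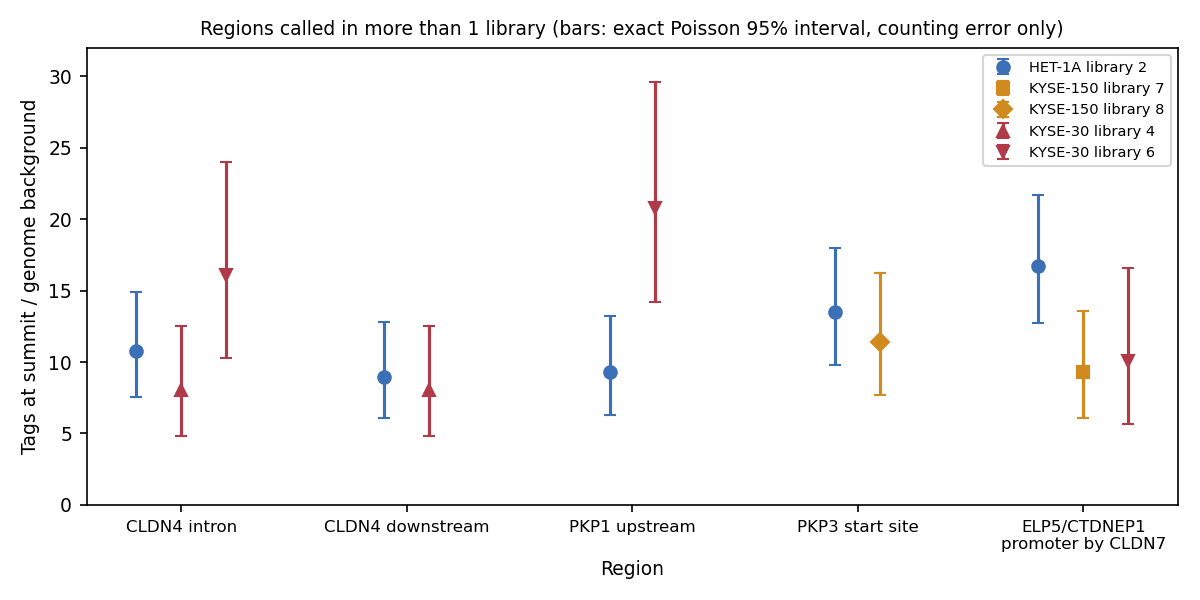
Tags at the summit divided by the genome background of the library (vertical axis) at the 5 regions called in more than 1 library (horizontal axis), with exact Poisson 95% intervals as bars, which cover counting error only. The intervals overlap at every region except upstream of PKP1, where KYSE-30 library 6 lies at 20.8 and HET-1A library 2 at 9.27.

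PKP3 (ENSG00000184363, chr11:392614-404908, plus strand), a plakophilin found through most epithelial layers, was the 1 gene of the 10 with promoter peaks in KYSE-150. The site just upstream of an internal start site at 394145 was called in HET-1A library 2 (chr11:393942-394269) with a fold enrichment of 4.56 and a q-value of 4.31e-14, and in KYSE-150 library 8 (chr11:394109-394365) with 2.94 and 0.000726. The summits were 2 bp apart. The tags were 13.5 times the genome background in HET-1A (9.82 to 18.0) and 11.4 times in KYSE-150 (7.68 to 16.2), which overlap. Promoter peaks in these libraries and in no others were called at 20 genes, 0.0992% of all. KYSE-150 library 8 had a promoter peak at just 73 genes in all, so any pattern that includes it is rare.

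Near the end of PKP3, around a start site at 404087 and within reach of a SIGIRR promoter, each of the same libraries had a further peak. The fold enrichment was 2.71 in HET-1A library 2 (chr11:404317-404584) and 3.14 in KYSE-150 library 8 (chr11:403939-404228). These did not overlap, and their summits were 413 bp apart. The local background at the PKP3 peaks was 2.72 to 3.62 times the genome background, against a median of 1.75 over the 26 peaks of the 10 genes, and its part in the result was not tested.

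The desmosomal cadherins had hardly any called peak. DSG3 (ENSG00000134757, chr18:29027704-29058665, plus strand), the antigen of pemphigus vulgaris, and DSC2 (ENSG00000134755, chr18:28638806-28682485, minus strand) had none in any library. Among all genes 28.9% had none. The nearest summit to the DSG3 start in HET-1A library 2 was 66.0 kb away on the side of DSG2, with a fold enrichment of 6.91, and in KYSE-30 library 6 it was 495 kb away. DSC3 (ENSG00000134762, chr18:28569331-28622781, minus strand), the partner of DSG3 in the basal layers, had 1 intron peak in HET-1A library 2, at chr18:28591476-28591698, with a fold enrichment of 4.37, a q-value of 6.58e-06 and 18 tags (10.7 to 28.4). The gap between DSC3 and DSC2 is 16025 bp, so their windows overlap, and no peak fell in the shared stretch.

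Merged where they overlapped, the 26 peaks formed 19 regions. Of these, 11 were called in HET-1A library 2 alone, 2 in KYSE-30 library 6 alone and 5 in more than 1 library. All 5 shared regions joined HET-1A with a carcinoma line, and 3 of them were distal. All 9 distal regions were called in HET-1A library 2, and 6 of them lay in introns. No peak of the 10 genes was shared between KYSE-150 and KYSE-30 except the promoter of ELP5 and CTDNEP1.

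A site without a peak is not shown to be closed. At the genome background, the weakest called peak held 3.59 times that background in HET-1A library 2, 4.64 (library 7) and 4.93 times (library 8) in KYSE-150, and 5.07 (library 4) and 5.38 times (library 6) in KYSE-30. For HET-1A library 1 it was 5.31 times. Of the 16 peaks of HET-1A library 2 at the 10 genes, all 16 were above the limits of both KYSE-150 libraries and of KYSE-30 library 4, and 14 were above those of KYSE-30 library 6 and HET-1A library 1. The limit is higher where the local background is raised, and only 1 of the 26 peaks lay at the genome background. The median local background of the 26 was 1.75 times it. The counts above therefore do not show that these peaks could have been called in the other libraries. Tags below the calling limit are not in the lists.

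The motifs at the peaks were searched in 200 bp around the summit. Of the 16 merged regions outside promoters of other genes, 7 held an AP-1 core, 4 an E-box and 0 a Grainyhead-like motif (AACCGGTT or AACCTGTT). In KYSE-30 library 6 all 4 such peaks held an AP-1 core, among 40.3% of all distal peaks and 26.1% of all peaks of that library. For HET-1A library 2 it was 5 of 13, among 31.2% of distal peaks and 21.7% of all peaks. None of the 2 peaks in KYSE-30 library 4 and of the 2 in KYSE-150 library 8 held one within the 200 bp searched. The CLDN4 intron peak of KYSE-30 library 4 (chr7:73236897-73237096) does contain the core at 73237049. That core lies outside the 200 bp around its summit at 73236915, so the libraries do not differ in sequence there. An E-box was held by 3 of the 13 peaks of HET-1A library 2, among 22.0% of distal peaks and 19.2% of all peaks. For KYSE-30 library 6 it was 1 of 4, among 19.8% of distal peaks and 17.4% of all peaks. It was 1 of 2 in KYSE-30 library 4 and in KYSE-150 library 8, among 24.0% and 22.6% of distal peaks. The E-box counts of the long lists lie near these shares and were not tested. The Grainyhead-like letters were rare everywhere, in 0.989% of all HET-1A library 2 peaks and 1.47% of all KYSE-30 library 6 peaks. A match is only a match of letters and does not show that a factor was bound.

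In the RefSeq promoter sequences (GRCh38.p14, 250 bases before to 50 after the start), 8 of the 10 genes were matched, and CDH1 and PKP3 were not. An AP-1 core was found in the promoter of CLDN4 alone, where 4.92% of all promoters held one. E-boxes were found at DSP and DSC2, where 20.6% of all promoters held one, and the Grainyhead-like motif at none, where 0.813% held one. The promoters differed in base composition. DSP had 77.0% G and C, above 93.8% of all promoters, and DSG3 44%, above 19.3% of them. CLDN4 had few CpG, 0.192 of the number its bases would give, and CLDN1 many, 0.921. Promoter peaks were called at genes of both kinds, but not always in the sequence compared. The CLDN1 peak lay 2562 bp from the nearest annotated start, outside that sequence. The CLDN4 promoter peaks of HET-1A and KYSE-30 were 31.2 kb apart, so that sequence cannot hold both.

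Other junction genes, 30 in all, were counted by the same rule. In HET-1A library 2, 16 of the 30 (53.3%) had a promoter peak, and in KYSE-30 library 6, 11 (36.7%), where all genes had 35.4% and 28.7%. The 8 adherens junction genes had the most, 6 in HET-1A library 2 and 5 in KYSE-30 library 6. Among them, CTNNB1, which encodes beta-catenin, had a fold enrichment of 4.83 and 5.63 in these libraries, CTNND1 (p120 catenin) 5.25 and 6.21, and NECTIN1 3.83 and 4.96. CDH3, the neighbour of CDH1 that encodes P-cadherin, had a promoter peak of 4.35 in HET-1A library 2 and of 4.7 and 4.51 in KYSE-30 libraries 4 and 6, and was thus called in both libraries of a line.

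Of the 10 other desmosome genes, 4 had a promoter peak in HET-1A library 2, 1 in library 7 of KYSE-150 and 3 in library 6 of KYSE-30. Of all genes, 35.4%, 1.79% and 28.7% had one in these libraries. JUP, which encodes plakoglobin of both desmosomes and adherens junctions, had 5.28 in HET-1A library 2, 4.21 in library 7 of KYSE-150 and 4.45 in library 6 of KYSE-30. EVPL (envoplakin) had 3.63 in HET-1A library 2 and 3.83 in KYSE-30 library 6. Of the 12 other tight junction genes, 6 had one in HET-1A library 2 and 3 in KYSE-30 library 6, among them the adhesion gene F11R (4.53 and 4.35). Promoter peaks in both long lists were thus called, among others, at CTNNB1, CTNND1, NECTIN1, CDH3, JUP, EVPL and F11R. The catenin gene CTNNA1 had one in KYSE-30 library 6 alone (4.61). Of the 10 genes named at the start only CLDN4 had promoter peaks in both long lists. Promoter peaks in just these libraries were called at 14.7% of all genes. The difference between the gene lists was not tested.

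Of 12 transcription factors known to act on junction genes, 5 had a promoter peak in HET-1A library 2 (35.4% of all genes). In library 7 of KYSE-150 it was 1 (1.79%), and in KYSE-30 1 (library 4, 3.87%) and 3 (library 6, 28.7%). GRHL1, a Grainyhead-like factor, had a fold enrichment of 3.29 in HET-1A library 2 and 5.7 in KYSE-30 library 6. KLF5, an activator in squamous epithelium, had 4.37 in HET-1A library 2, 4.36 in library 7 of KYSE-150 and 6.89 in library 6 of KYSE-30. SNAI2, a repressor of CDH1, had 4.34 in HET-1A library 2 and 3.29 in KYSE-30 library 4. As a measure of what the lists can show, 10 constantly expressed genes had promoter peaks in 0, 5, 1, 0, 2 and 7 cases in libraries 1, 2, 7, 8, 4 and 6, so even such genes were missed in most libraries.

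**Figure D5:**
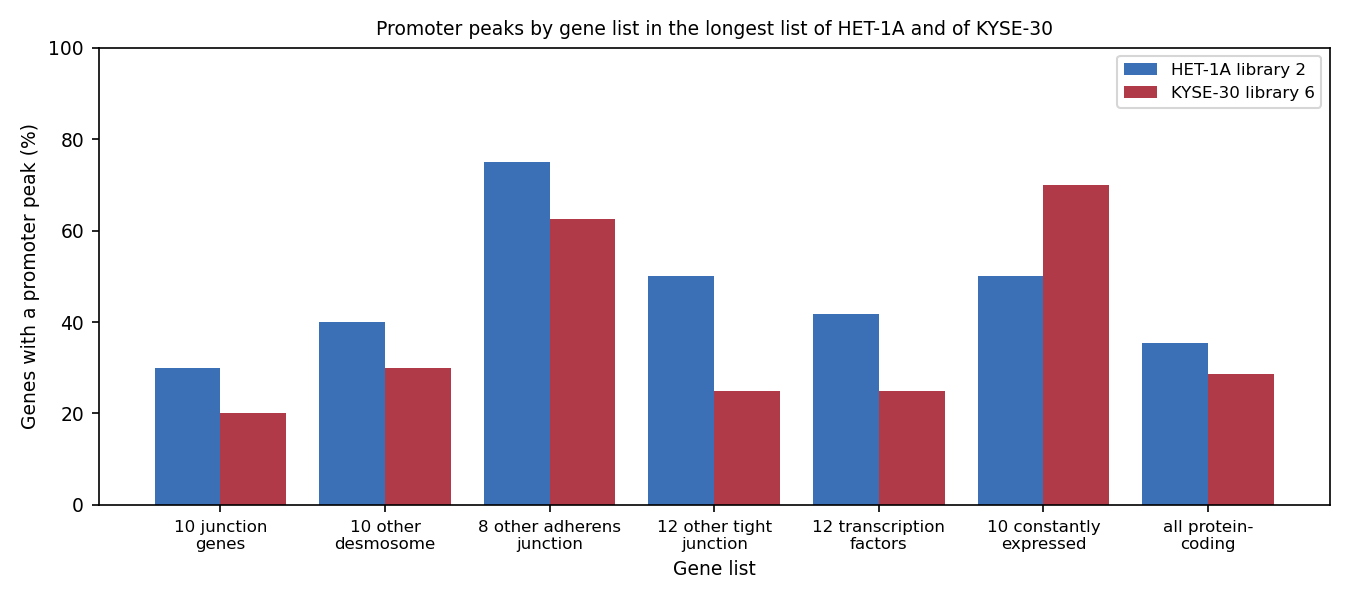
Percent of genes with a promoter peak (vertical axis) in HET-1A library 2 (blue) and KYSE-30 library 6 (red) for the 10 junction genes, for 5 other lists and for all protein-coding genes (horizontal axis). The 10 junction genes stand at 3 and 2 of 10, the 8 other adherens junction genes at 6 and 5 of 8.

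The labelled cell type was looked at through marker genes in the same way. Of 5 squamous markers, SFN (4.92) and KRT6A (3.53) had promoter peaks in HET-1A library 2, and KRT5, KRT14 and TP63 had none in any library. Of 3 simple epithelial markers, all had one in HET-1A library 2, and KRT8 (4.91) and EPCAM (5.23) in KYSE-30 library 6. Of 4 mesenchymal markers, FN1 had one in HET-1A library 2 (4.78) and VIM in KYSE-30 library 6 (5.37). The 2 leukocyte markers and CDH5 of endothelium had none. Of all genes, 35.4% had a promoter peak in HET-1A library 2 and 28.7% in KYSE-30 library 6.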

How the data were processed

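ATAC-seq peak lists of 6 libraries were analysed, with 2 libraries for each of 3 lines. The authors trimmed the reads with ea-utils, mapped them to hg19 (Bowtie2 2.3.3.1), marked duplicates (Picard 2.2.1), filtered blacklisted regions (bedtools 2.7.1), shifted reads for Tn5 and kept fragments under 100 bp. They called peaks in each library by itself with MACS2 (2.1.0.20160309; q-value 0.05, tags extended to 200 bp), with no pooling of replicates. The deposited lists give a score, a fold enrichment (a ratio), and −log10 of the p-value and q-value. Fragments this short come mostly from DNA free of nucleosomes, so the lists say little of wider or nucleosome-bound open regions.

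Whole summit tags and local background were recovered from each deposited fold enrichment and p-value to within 0.001 of −log10 p, for 99.61% to 100% of peaks. On simulated data, 300 peaks per library, 99.7% to 100% were recovered. Read totals are not used here. The genome background gives the relative depth of the libraries, and the number of peaks did not follow it (KYSE-30 library 6 had the lowest background, 1.49 tags per 200 bp, and 11671 peaks, KYSE-150 library 7 2.8 tags and 547 peaks). Tags are read ends, not independent molecules, so that intervals can be too narrow.

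Gene bodies and all transcript starts came from GENCODE 44 lifted to hg19, whose chromosomes matched the lists, and 1 shared bp counted as overlap. The share of all 20162 protein-coding genes called by the same rule is the background. Members and gene lists were chosen with earlier results of these data known. By rule, the text names all 10 genes, the strongest promoter peak per gene and library, distal peaks called in at least 2 libraries, and listed genes with promoter peaks in 2 lines or in both libraries of a line. Other peaks, single marker genes and peaks outside the windows were named after their values were seen. PECAM1 was listed as a marker and not analysed here. Listed genes and sequences that the rule would name and the text does not are not reported here. Analyses ran in Python 3.11.15 with scipy 1.17.1, numpy 2.4.6, pysam 0.24.0, matplotlib 3.10.9 and pandas 2.3.3. The alternatives were q-values under 0.01 or 0.001, 168 peaks per library, an overlap of 50% of the peak or its summit, promoters of 1 kb, the gene start only, windows of 10 or 50 kb, nearest-start assignment, a peak in either library, and each library left out.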

Additional observations from a re-analysis of the deposited data

How the results depend on the processing

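Of 213 recomputed values, 173 stayed as they were or within 1.5 times, and 40 moved. Those under q-values of 0.01 or 0.001 and under both other overlaps all stayed. The largest q-value of the peaks at the 10 genes was 0.000726, so these q-value limits could not change any count. The counts of peaks and genes in HET-1A library 1 were 0 under every setting. The number that stayed is therefore not a measure of robustness. With the 168 peaks of smallest p-value per library, window peaks were 1 for HET-1A library 2, 1 for KYSE-150 library 8 and 0 in each KYSE-30 library, distal peaks were 0 in HET-1A library 2 and in each KYSE-30 library, and 0 genes had a promoter peak in HET-1A library 2 or KYSE-30 library 6. Genes with a promoter peak in 1 line alone were then 0 for HET-1A, 1 for KYSE-150 and 0 for KYSE-30. Most of the peaks described thus rest on the long lists, which is the construction of this alternative. With promoters of 1 kb, 1 gene had a promoter peak in KYSE-30 library 6, and 0 had one in that line alone. With the gene start only, 1 gene had one in KYSE-30 library 6, 2 in HET-1A alone, and KYSE-150 library 8 had 1 distal peak. With windows of 10 kb, KYSE-30 library 4 had 1 peak, which was distal. With windows of 50 kb, window peaks were 33 in HET-1A library 2, 2 in KYSE-150 library 7, and 4 (library 4) and 12 (library 6) in KYSE-30, and distal peaks 19 in HET-1A library 2 and 6 in KYSE-30 library 6. Assigned to the nearest start site of all genes, 10 peaks in HET-1A library 2, 0 in library 7 of KYSE-150 and 1 in library 4 of KYSE-30 belonged to the 10 genes.

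Genes with a promoter peak in either library of a line were 3 in HET-1A, 1 in KYSE-150 and 2 in KYSE-30. With each library left out in turn, the counts for both libraries of a line ranged from 0 to 3 in HET-1A, 0 to 1 in KYSE-150 and 0 to 2 in KYSE-30. The highest values came without HET-1A library 1, KYSE-150 library 7 and KYSE-30 library 4. Such a value is the count of the remaining library of the line alone and is no replicate check. Genes in 1 line alone ranged from 0 to 2 for HET-1A, 0 to 1 for KYSE-150 and 0 to 2 for KYSE-30. Without HET-1A library 2 they were 0, 1 and 2, without KYSE-30 library 6 they were 2 in HET-1A alone and 0 in KYSE-30 alone, and without KYSE-150 library 8 they were 2 in HET-1A alone. No paired analysis was possible because the groups share no replicate numbers and no test was made. In the 4 short lists, 0 to 2 of 10 constantly expressed genes had a promoter peak, so an absent peak there does not show a closed site.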
